A study of Mus musculus with 40 samples.

Results

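The cytosolic ribosomal protein genes were followed across 10 groups of early mouse embryos. Members were the probe sets annotated to a single gene whose symbol begins with Rpl or Rps and a number, ending there or with a, l or x, together with Rplp0, Rplp1 and Rplp2, and Rps4l and the S6 kinases (Rps6k) were left out. This gave 44 genes, each represented by its probe set with the highest mean, of which 20 encode large subunit proteins, 19 small subunit proteins, 2 the ribosomal stalk and 3 paralogs (Rpl39l, Rpl3l and Rps27l). Rps16 had a mean log2 level of 2.98 and lay above the overall median of 5.34 on 0 of 39 arrays, so it was not detectable here. The other 43 are among the 14916 genes tested. All levels are log2 of the array intensity plus a constant of 6.9, and all differences are on that log2 scale, which understates the change of dim genes. The arrays were brought to the same distribution of values, so each level is relative to the other messages on its array.

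Embryos were of the B6D2 mouse background and were collected at the 2-cell and the 1-cell stage. They were made by somatic cell nuclear transfer (SCNT) with cumulus cells as donors, were parthenogenetic (activated without sperm), or were fertilized, and SCNT and fertilized embryos were also grown in α-amanitin, which blocks RNA polymerase II. The 10 groups are therefore SCNT with amanitin, SCNT untreated, parthenogenetic, fertilized with amanitin and fertilized untreated, each at both stages, with 4 arrays per group and 3 for untreated SCNT at the 1-cell stage. The submitters' design text names amanitin cultures for both origins. For single samples it is spelled out in 7 of the 8 treated SCNT labels and in 0 of the 8 fertilized ones, so which fertilized arrays were treated rests on reading the letter A before the replicate number as amanitin. Poly(A) RNA was labelled and hybridized. The labels give MEMα as the medium of most SCNT samples and KSOM for 1 fertilized sample, so medium and origin cannot be told apart. Separate collections or animals are not stated for replicates, and p-values here cover only how far these samples spread.

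Each ribosome holds a single copy of nearly every ribosomal protein, and cells make the proteins in matched amounts by transcribing their genes at similar rates and by translating their messages together. Those messages begin with a run of pyrimidines, the 5′ terminal oligopyrimidine (TOP) motif, through which mTOR signalling and the RNA-binding protein Larp1 govern translation. The mouse egg carries maternal ribosomes and messages, and its own genome starts to be transcribed in a minor phase at the 1-cell stage and a major phase at the 2-cell stage. Amanitin separates messages made by that new transcription from those inherited from the egg. Stored maternal messages also change the length of their poly(A) tail, and in poly(A) RNA a longer tail and more transcripts cannot be told apart. Likewise, in RNA of whole embryos fewer cells with a message and less message per cell cannot be told apart.

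Start-site sequences are shown for members at both ends of the range described here: Rpl41, Rps18, Rps26, Rpl37a and Rps15, with the 5 largest differences between the stages among members with a single start in the table, and Rpl13a, Rpl37, Rpl39 and Rps6, with none called in fertilized embryos. Rpl39l, with the largest difference between SCNT and fertilized 2-cell embryos, is added. The windows come from RefSeq on GRCm38.p6, run 5′ to 3′ on the gene's strand with 60 bases before the start and 25 from it, and capitals mark a motif match.
Rpl41 (chr10:128549144-128549228, minus strand): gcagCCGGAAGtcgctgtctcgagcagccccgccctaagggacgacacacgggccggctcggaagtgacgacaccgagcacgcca
Rps18 (chr17:33955641-33955725, minus strand): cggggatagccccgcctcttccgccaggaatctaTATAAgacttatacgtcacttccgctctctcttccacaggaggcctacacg
Rps26 (chr10:128626482-128626566, minus strand): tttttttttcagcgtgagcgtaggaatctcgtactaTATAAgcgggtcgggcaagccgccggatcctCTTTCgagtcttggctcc
Rpl37a (chr1:72711200-72711284, plus strand): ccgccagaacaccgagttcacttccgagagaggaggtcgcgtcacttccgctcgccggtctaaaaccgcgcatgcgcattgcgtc
Rps15 (chr10:80292371-80292455, plus strand): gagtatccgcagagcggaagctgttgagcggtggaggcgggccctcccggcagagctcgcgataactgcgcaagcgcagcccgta
Rpl13a (chr7:45128721-45128805, minus strand): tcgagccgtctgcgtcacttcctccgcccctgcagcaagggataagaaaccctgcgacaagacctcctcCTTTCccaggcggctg
Rpl37 (chr15:5116553-5116637, plus strand): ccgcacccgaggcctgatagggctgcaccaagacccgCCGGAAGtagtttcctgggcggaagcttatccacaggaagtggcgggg
Rpl39 (chrX:37085198-37085282, minus strand): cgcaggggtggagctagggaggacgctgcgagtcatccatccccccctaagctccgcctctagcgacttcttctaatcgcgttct
Rps6 (chr4:86857343-86857427, minus strand): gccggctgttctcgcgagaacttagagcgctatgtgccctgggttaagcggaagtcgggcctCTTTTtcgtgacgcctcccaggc
Rpl39l (chr16:10170168-10170252, plus strand): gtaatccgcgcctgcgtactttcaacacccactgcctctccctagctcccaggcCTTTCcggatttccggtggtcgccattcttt
The capitals are the ETS core CCGGAAG in Rpl41 and Rpl37, the pyrimidine start motif CTTTC or CTTTT in Rps26, Rpl13a, Rps6 and Rpl39l, and TATAA in Rps18 and Rps26. The printed windows of Rpl37a, Rps15 and Rpl39 hold none of the searched motifs. An ETS core or a pyrimidine motif stands in this window both in members that changed most (Rpl41, Rps26) and in members not called (Rpl37, Rpl13a, Rps6). Of the latter, Rpl13a rose on its other probe sets and Rps6 lay near the overall median. Whether a motif bears on the change was not tested. RefSeq windows were found for 38 of the 43 tested members, 46 windows in all. Searched on both strands from -250 to 50 around the start, the ETS core stood in 19 of the 46 windows (41.3%) and in 8.9% of all 32851 windows. The YY1 core AAGATGG, on both strands, stood in 13% of the members' windows and 6.3% of all, and these 2 motifs can overlap, since the ETS core ends with the letters AAG that open the YY1 core. CTTTT or CTTTC on the gene's strand within 20 bases of the start was held by 30.4% of the members' windows and 9.4% of all. Such a match can lie before the start, as in Rpl39l. Other pyrimidine runs were not searched, such as ctctcttcc at the start of Rps18, so a window without a match may still hold a TOP motif. TATAA from -40 to -15 was held by 8.7% of the members' windows and 3.6% of all.

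Nearly all ribosomal protein messages were higher at the 2-cell than at the 1-cell stage. In fertilized embryos 39 of 43 members rose and 0 fell (limma, Benjamini-Hochberg adjusted over all 14916 genes, threshold 0.05), against 25.8% of all genes called higher and 34.2% called lower. At an unadjusted p of 0.05 the number lower was also 0. The median difference over the members was 3.0, and over all genes it was -0.12. A difference of at least 1 log2 unit was seen for 37 members, and the arrays of the stages did not overlap for 38. No share of all genes stands beside these counts, so they do not show a trait particular to the members. Of the large subunit genes 17 of 20 were called higher (median 2.81), and of the small subunit genes 17 of 18 (median 3.24). All 9 tested genes mutated in human Diamond-Blackfan anaemia, an inherited failure of red cell production, rose (median 2.57).

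**Figure D1:**
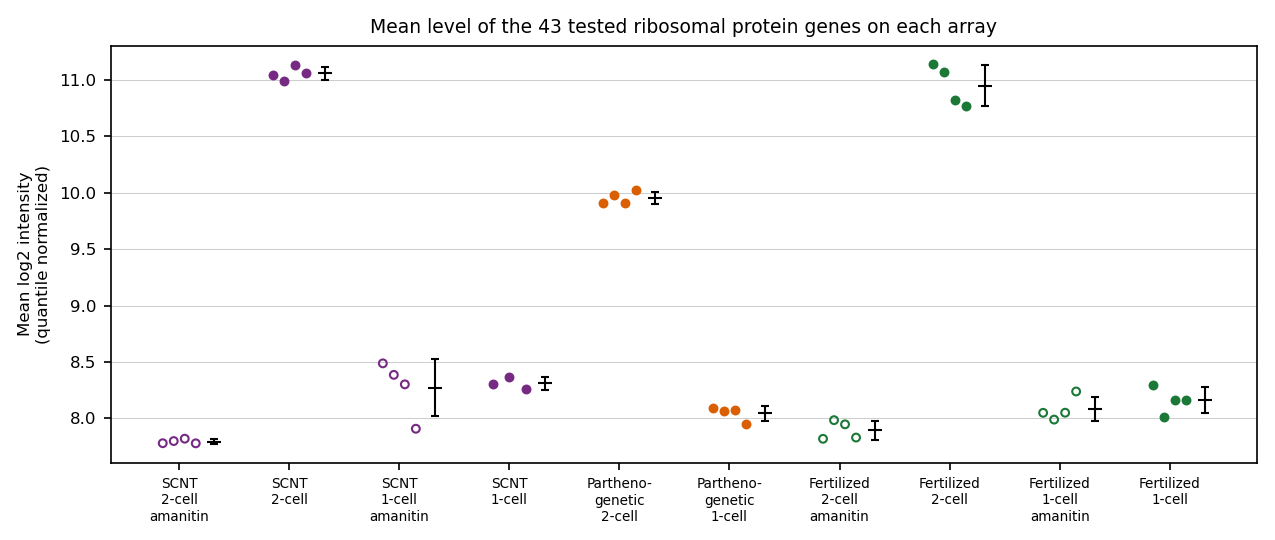
Mean log2 level of the 43 tested ribosomal protein genes on each array (points), by group along the x axis, with bars at the group mean ± SD over arrays and open circles for amanitin. Untreated 2-cell SCNT and fertilized embryos are highest at 11.06 and 10.95, parthenogenetic 2-cell embryos reach 9.95, and every other group lies between 7.80 and 8.31.

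Averaged over the 43 members, the level was 10.95 ± 0.18 in fertilized 2-cell embryos and 8.16 ± 0.11 in fertilized 1-cell embryos (SD, n = 4 each). The plot of member means shows the untreated 2-cell groups standing clear of all others.

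The largest rise in fertilized embryos was that of Rps19, a small subunit protein and the gene most often mutated in Diamond-Blackfan anaemia. Its levels were 10.97, 10.81, 10.38 and 10.37 on the 2-cell arrays, against 5.02, 4.16, 3.26 and 4.72 on the 1-cell arrays. Every 1-cell value lies below the overall median of 5.34, so the constant shapes part of the gap of 6.34 ± 0.36 (adjusted p = 8.11e-19), which ran from 5.49 to 6.88 over the alternatives. Rpl41, one of the shortest proteins known, had 2-cell levels of 13.23, 13.13, 12.94 and 12.68, against 7.58, 7.24, 7.39 and 7.17 at the 1-cell stage. Both sets of values are far above the array median and far apart, a rise of 5.65 ± 0.18 (50.2-fold, adjusted p = 2.11e-26). Rps18, part of the head of the small subunit, had 12.59, 12.70, 12.36 and 12.15 at 2 cells, against 7.50, 7.57, 7.85 and 7.50 at 1 cell, a rise of 4.85 ± 0.16 (adjusted p = 9.86e-26). Its probe set without a mark for related transcripts, dim with a mean of 5.40, gave 0.38 (adjusted p = 0.425). Rps26, which contacts the messenger RNA at the exit side of the small subunit, had 12.30, 12.12, 11.86 and 11.89, against 7.56, 7.08, 7.13 and 7.40, a rise of 4.75 ± 0.23 (adjusted p = 1.31e-20). Rps20, also of the small subunit head, rose by 4.66 ± 0.16. In each of these 5 genes the lowest 2-cell array lay above the highest 1-cell array.

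The 4 members not called in fertilized embryos were Rpl13a, Rpl37, Rpl39 and Rps6. Rpl13a, known in human monocytes for leaving the ribosome after interferon treatment, had 10.82, 11.02, 10.69 and 10.58 at 2 cells, against 10.77, 10.40, 10.65 and 10.64 at 1 cell (difference 0.16 ± 0.10, adjusted p = 0.162). The ranges overlap, and both groups are bright. Its other 3 probe sets gave differences of 1.26, 3.10 and 2.49, so the probe sets of this gene disagree. Rpl37, a zinc-binding large subunit protein, had 8.99, 9.23, 7.92 and 8.16, against 8.44, 8.46, 8.56 and 8.95 (difference -0.03 ± 0.19, adjusted p = 0.914). Here the 2-cell arrays were split, 2 above and 2 below all 1-cell values. Rpl39, a small protein lining the exit tunnel, had 7.79, 7.86, 7.18 and 7.70, against 7.86, 7.73, 7.46 and 6.87 (difference 0.15 ± 0.25, adjusted p = 0.622). Rps6, the small subunit protein phosphorylated by S6 kinases downstream of mTOR, had 6.11, 5.90, 6.18 and 6.17, against 6.03, 5.84, 5.92 and 6.09 (difference 0.12 ± 0.35, adjusted p = 0.795). Both its groups are close to the overall median of 5.34.

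**Figure D2:**
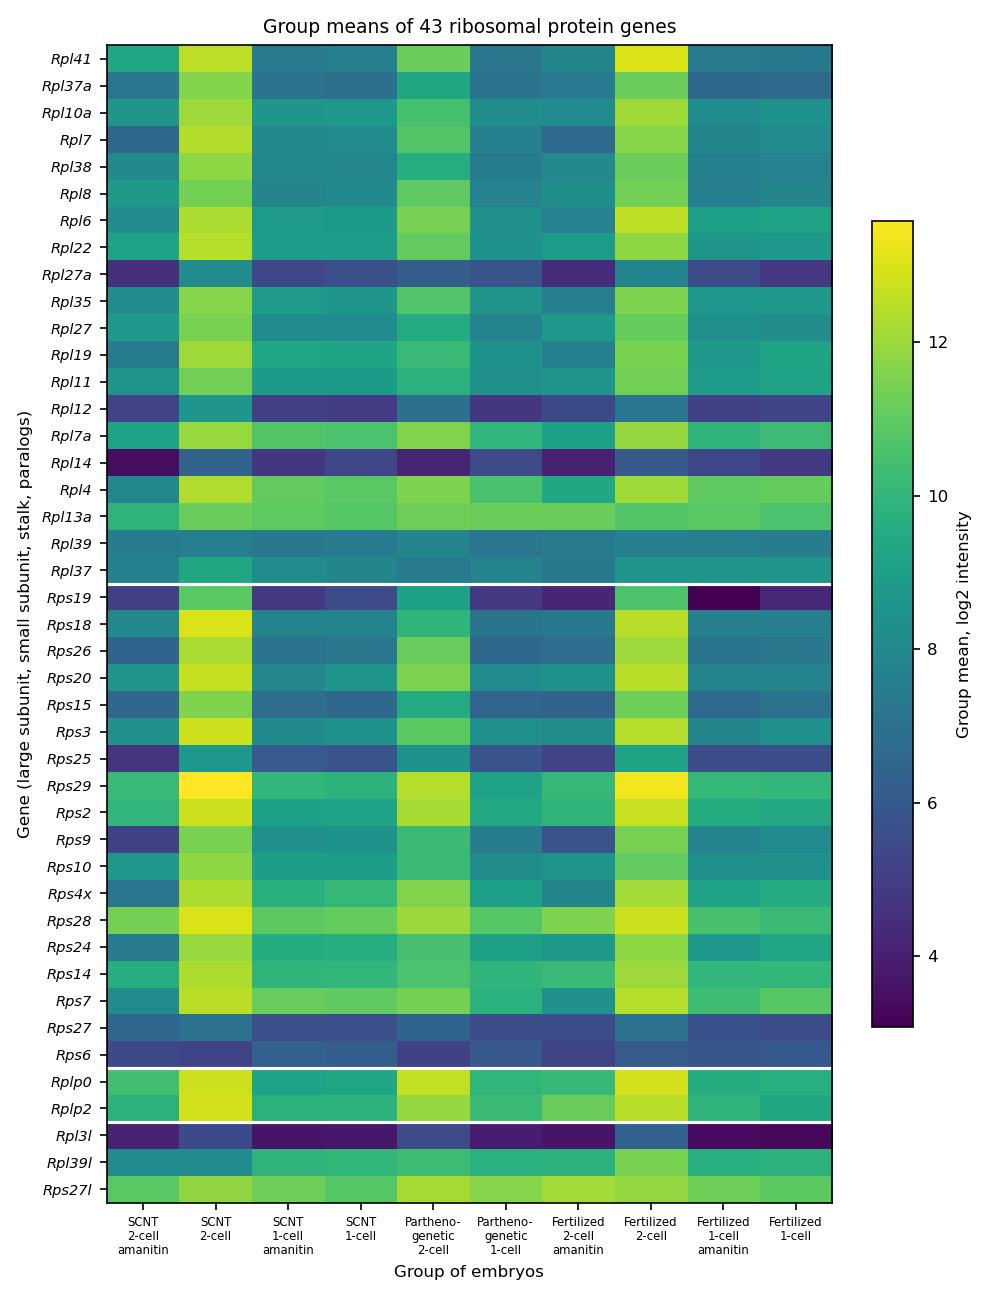
Mean log2 level of each tested ribosomal protein gene (y axis) in each group (x axis), on a colour scale of log2 intensity to be read along a gene and not between genes. Genes are grouped into large subunit, small subunit, stalk and paralogs and ordered within a class by the stage difference in fertilized embryos, and the 3 untreated 2-cell columns are the brightest for most genes, with Rpl39l, Rpl13a, Rps6 and Rpl39 among the exceptions.

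In SCNT embryos 40 members rose and 2 fell between the stages (median 3.0), against 26.3% and 34.4% of all genes called higher and lower. In parthenogenetic embryos 38 rose and 2 fell (median 2.07), against 21.7% and 27.4%. The 3 origins share no arrays in these comparisons, and 36 of 43 members rose in all 3. No share of all genes is given for that joint count. Across the 43 members the fertilized stage differences correlated with those of SCNT embryos at r = 0.865 and with those of parthenogenetic embryos at r = 0.863. Over all genes these were 0.893 and 0.794, so likeness between origins was not particular to the members. In SCNT embryos Rps19 (5.37 ± 0.39), Rps18 (5.18 ± 0.18), Rps26 (4.95 ± 0.25), Rps15 (4.93 ± 0.18) and Rpl41 (4.88 ± 0.20) rose most. In parthenogenetic embryos the largest rises were those of Rps26 (4.52 ± 0.23), Rps19 (4.27 ± 0.36), Rpl41 (3.96 ± 0.18), Rps20 (3.30 ± 0.16) and Rps29 (3.27 ± 0.18). Rpl14 (-1.30 ± 0.44, adjusted p = 0.0122) and Rps6 (-0.83 ± 0.35, adjusted p = 0.0476) fell there, and Rpl39l (-1.88 ± 0.24, adjusted p = 4.88e-09) and Rps6 (-1.02 ± 0.38, adjusted p = 0.0188) fell in SCNT embryos. Rps6 had 5.78, 5.20, 5.40 and 4.54 on the SCNT 2-cell arrays, against 6.24, 6.21 and 6.32 at 1 cell. Those 2-cell values straddle the overall median. The parthenogenetic call of Rps6 was lost in 10 of 20 alternatives (-1.03 to -0.39, adjusted p up to 0.367), that of Rpl14 in 2 of 19 (values as deposited and without 2-cell replicate 3, adjusted p up to 0.0753) and the SCNT call of Rps6 in 3 of 19 (adjusted p up to 0.0947). The number lower in parthenogenetic embryos was 0 with the values as deposited, 4 with median centring, and 1 without 2-cell replicate 2 or 3 or any of the 1-cell replicates. Poly(A) control transcripts ranged from 3.562 to 3.664 on untreated SCNT 1-cell arrays and from 8.115 to 9.150 on untreated SCNT 2-cell arrays. On untreated fertilized arrays the ranges were 5.929 to 6.846 and 6.912 to 8.403. The part of these controls in the stage changes was not tested.

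**Figure D3:**
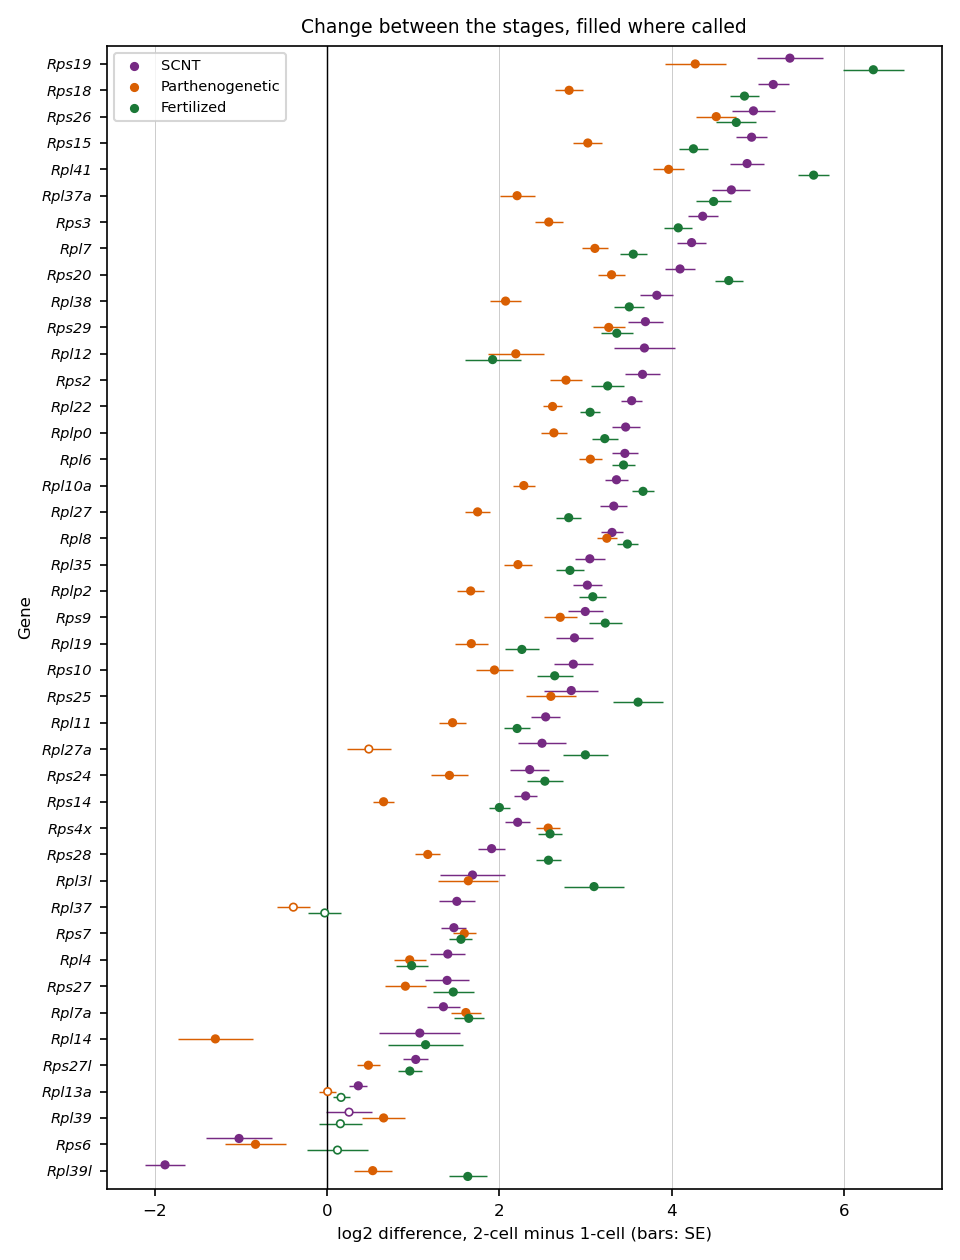
Difference between the 2-cell and the 1-cell stage (x axis, log2) for each tested ribosomal protein gene (y axis, ordered by the SCNT value) in SCNT, parthenogenetic and fertilized embryos. Filled points passed the test, bars are ± SE, and most points lie to the right of 0 in all 3 origins, with a smaller parthenogenetic change called for 23 members.

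How much of the 2-cell level depends on transcription was addressed with amanitin. In fertilized 2-cell embryos 40 of 43 members were lower with amanitin and 1 was higher (median -3.04), against 25.8% of all genes called lower and 38.6% called higher (median over all genes 0.27). In SCNT 2-cell embryos 39 were lower and 0 higher (median -3.38), against 29.7% and 39.6% of all genes. The count of 0 was also 0 at an unadjusted p of 0.05. The embryos of both origins share no arrays, and 37 members fell in both. No share of all genes is given for that joint count. Amanitin differences of the origins correlated at r = 0.856 over the members and 0.822 over all genes. All 18 tested small subunit genes fell in fertilized embryos (median -3.97), as did 18 of 20 large subunit genes (median -3.0). The mean over members was 7.80 ± 0.02 in SCNT 2-cell embryos with amanitin and 11.06 ± 0.06 in untreated ones, and 7.90 ± 0.08 in fertilized 2-cell embryos with amanitin and 10.95 ± 0.18 in untreated ones (SD, n = 4 each).

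Rps9, a small subunit protein that in yeast affects decoding accuracy, had one of the largest falls in both origins. With amanitin its levels were 5.89, 5.41, 6.02 and 5.95 in fertilized 2-cell embryos, against 11.28, 11.74, 11.57 and 11.09 without it, a difference of -5.61 ± 0.19 (adjusted p = 8.74e-26). In SCNT 2-cell embryos they were 5.17, 5.42, 4.75 and 5.24, against 11.03, 11.46, 11.59 and 11.73, a difference of -6.31 ± 0.19 (adjusted p = 1.49e-27). Treated arrays of this gene lay near the overall median of 5.34 in both origins. Rps19 had 3.91, 3.69, 5.32 and 3.85 with amanitin, against 10.97, 10.81, 10.38 and 10.37 without (difference -6.44 ± 0.36), in fertilized embryos. Replicate 3 of the treated group stood above the other 3 arrays for this gene and for Rpl41. Rps18 had 7.06, 7.60, 7.55 and 7.14, against 12.59, 12.70, 12.36 and 12.15 (difference -5.11 ± 0.16), and Rps26 and Rpl41 fell by 5.17 and 5.09. The SCNT falls were led by Rps9, Rps19 (-5.84 ± 0.36), Rps26 (-5.77 ± 0.23), Rpl7 (-5.76 ± 0.16) and Rps4x (-5.06 ± 0.14). Probe sets without a mark for related transcripts gave -0.59 for Rps18 (adjusted p = 0.185), -2.96 for Rps9 and -3.31 for Rpl41 in fertilized embryos and -3.46 for Rps9 in SCNT embryos.

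In fertilized embryos 3 members were not called lower. Rpl13a had 11.17, 11.26, 11.30 and 11.23 with amanitin, against 10.82, 11.02, 10.69 and 10.58 without, and was higher by 0.46 ± 0.10 (adjusted p = 8e-05). Its other 3 probe sets gave differences of -0.59, -2.36 and -1.83, so the direction depends on the probe set, and the mean of the gene's probe sets gave -1.08. Rpl39 differed by -0.28 ± 0.25 (adjusted p = 0.336) and Rps27l by 0.25 ± 0.14 (adjusted p = 0.102), neither of which passed the test.

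**Figure D4:**
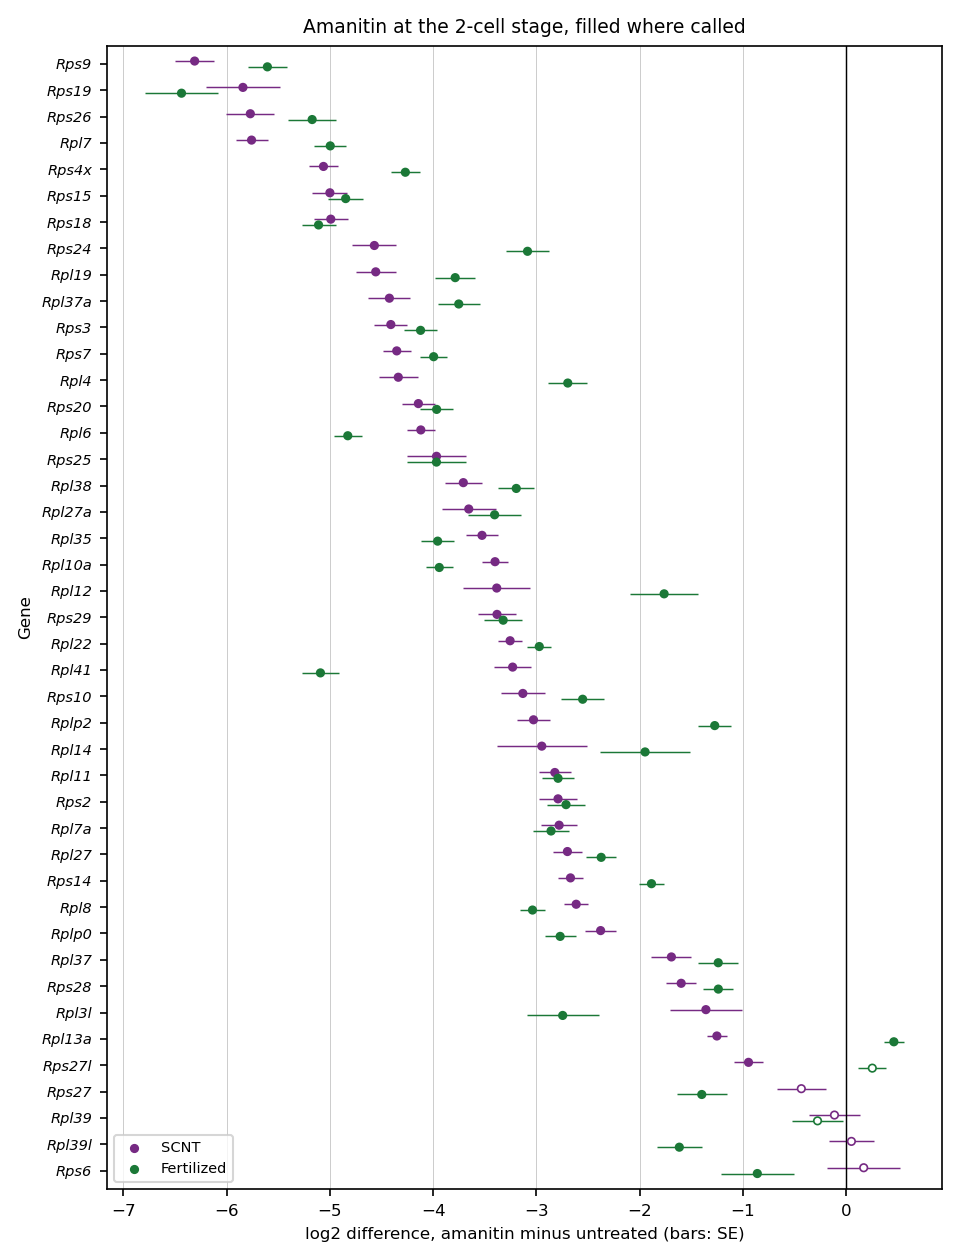
Difference between amanitin-treated and untreated 2-cell embryos (x axis, log2) for each tested ribosomal protein gene (y axis, ordered by the SCNT value) in SCNT and fertilized embryos. Filled points passed the test and bars are ± SE, and nearly all points lie to the left of 0, with Rpl39l near 0 in SCNT embryos and Rpl13a to the right of 0 in fertilized embryos.

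Under amanitin, members differed in how their level changed between the stages. In fertilized embryos with amanitin 11 members were higher and 12 lower at 2 cells (median -0.04), against 21.5% and 19.0% of all genes. In SCNT embryos with amanitin 9 were higher and 20 lower (median -0.26), against 25.6% and 29.8%. With arrays centred on their medians in place of quantile normalization, the split was 3 higher and 21 lower in fertilized and 4 higher and 26 lower in SCNT embryos, and the median over all genes of the fertilized comparison moved to -0.15, against 0.11. Rps9, Rps7 and Rpl4 were among the largest falls in both origins. Rps7, which binds Mdm2, had 8.20, 8.89, 8.25 and 8.26 at 2 cells, against 10.44, 10.05, 10.20 and 10.62 at 1 cell (difference -1.93 ± 0.13, adjusted p = 4.04e-15). In SCNT embryos it had 8.45, 8.08, 7.89 and 8.16, against 11.50, 11.16, 11.06 and 10.82 (difference -2.99 ± 0.13, adjusted p = 1.64e-21). The stages did not overlap for Rps7 in either origin. Rpl4, which reaches into the exit tunnel, differed by -1.61 ± 0.19 in fertilized and -3.08 ± 0.19 in SCNT embryos, and Rps9 by -1.97 ± 0.19 and -3.20 ± 0.19. The Rps9 falls rest on a probe set that may bind related transcripts, and its probe set without such a mark, which is dim, gave 0.01 and 0.60. Rpl14 (-1.29 ± 0.44) and Rpl6 (-1.28 ± 0.14) also fell in fertilized embryos, and Rps4x (-2.54 ± 0.14) and Rps24 (-2.18 ± 0.21) in SCNT embryos. The probe set of Rps24 without that mark, also dim, gave 0.74, and the call of Rpl14 was lost in 2 of 19 alternatives (adjusted p up to 0.109). Poly(A) control transcripts averaged 10.36 on treated SCNT 2-cell and 3.75 on treated SCNT 1-cell arrays. On the treated fertilized ones they averaged 7.42 and 7.29, and their part was not tested.

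Some members had a higher level at 2 cells with amanitin, relative to the other messages on the array. This does not show more message per embryo. In fertilized embryos the members higher with amanitin were led by Rplp2 (1.24 ± 0.16), Rps19 (1.11 ± 0.36), Rps28 (1.03 ± 0.14), Rps27l (0.86 ± 0.14) and Rpl37a (0.80 ± 0.20). Rps19 lay below the overall median on all 8 of these arrays, and its difference was 0.74 without 2-cell replicate 3 (adjusted p = 0.1), 0.79 with median centring (adjusted p = 0.0882) and 0.54 with the higher constant (adjusted p = 0.0605). Rpl37a gave 0.47 with median centring (adjusted p = 0.0574) and 0.06 as the mean of its probe sets (adjusted p = 0.864). In SCNT embryos they were led by Rpl41 (1.91 ± 0.18), Rplp0 (1.27 ± 0.15), Rps27 (0.93 ± 0.24), Rps2 (0.90 ± 0.19) and Rpl8 (0.89 ± 0.12). The Rpl41 probe set without a mark for related transcripts gave -0.38, and Rps2 lost its call in 1 of 21 alternatives (adjusted p = 0.0562). Across the 43 members the differences in both origins, which share no arrays, correlated at r = 0.744, and across all genes at r = 0.577.

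At the 1-cell stage amanitin changed few members. In fertilized 1-cell embryos 1 member was higher and 2 were lower, against 3.59% and 2.45% of all genes. Rplp2 had 9.75, 9.89, 10.13 and 10.03 with amanitin, against 10.10, 8.96, 9.24 and 9.22 without (difference 0.57 ± 0.16, adjusted p = 0.0224). Replicate 1 of the untreated group lies within the treated range. Rps19 (-1.21 ± 0.36, adjusted p = 0.0339) and Rps7 (-0.51 ± 0.13, adjusted p = 0.0145) were lower. For Rps19 every array of both groups was below the overall median. The calls were lost in 12 (Rps19), 6 (Rplp2) and 5 (Rps7) of 21 alternatives, with adjusted p up to 0.123, 0.129 and 0.708. The number lower became 0 without fertilized untreated replicate 4 or treated replicate 2 or 3, 1 without untreated replicate 3 or treated replicate 1, and 0 with median centring, where 5 members were higher. In SCNT 1-cell embryos 0 members were called in either direction, against 0.0805% of all genes higher and 0.349% lower, and at an unadjusted p of 0.05 there were 1 higher and 2 lower.

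In SCNT against fertilized embryos at the 1-cell stage 4 members were higher and 1 lower, against 2.87% and 2.69% of all genes. Rps19 (1.24 ± 0.39), Rps28 (0.88 ± 0.16), Rps20 (0.80 ± 0.17) and Rps4x (0.53 ± 0.15) were higher in SCNT embryos and Rpl37 was lower (-0.71 ± 0.21). The count of 4 higher members became 1 without SCNT replicate 1, 2 without SCNT replicate 4 or fertilized replicate 2, and 7 without fertilized replicate 1. The calls of Rps19, Rpl37, Rps4x and Rps20 were lost in 12, 8, 4 and 1 of 20 alternatives, with adjusted p up to 0.225, 0.224, 0.164 and 0.0501. Parthenogenetic against fertilized 1-cell embryos gave 5 higher and 15 lower members, against 10.9% and 9.52% of all genes, and 8 higher and 11 lower with median centring. Rps7 had 9.74, 9.78, 9.90 and 9.70 in parthenogenetic embryos, against 10.63, 10.76, 10.995 and 10.98 in fertilized ones (difference -1.06 ± 0.13, adjusted p = 1.25e-07). The groups do not overlap, and Rps29 (-0.89 ± 0.18), Rpl37 (-0.81 ± 0.19), Rpl11 (-0.79 ± 0.15) and Rpl6 (-0.74 ± 0.14) followed. Higher in parthenogenetic embryos were Rpl27a (0.95 ± 0.26), Rplp2 (0.86 ± 0.16), Rps27l (0.76 ± 0.14), Rpl13a (0.63 ± 0.10) and Rps28 (0.61 ± 0.14).

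SCNT against parthenogenetic 1-cell embryos gave 12 higher and 3 lower members, against 7.0% and 7.19% of all genes, and 6 higher and 4 lower with median centring. Rps7 (1.25 ± 0.14), Rps4x (1.06 ± 0.15), Rps9 (0.93 ± 0.20), Rps29 (0.73 ± 0.20) and Rpl19 (0.72 ± 0.21) were higher in SCNT embryos. Lower were Rps27l (-0.87 ± 0.15), Rplp0 (-0.67 ± 0.16) and Rpl13a (-0.42 ± 0.11). The 12 became 6 without SCNT replicate 1, 5 without SCNT replicate 3 and 7 without parthenogenetic replicate 4. Of the named members, Rps29 and Rpl19 lost their call in 2 of 19 alternatives and Rps9, Rplp0 and Rpl13a in 1 (adjusted p up to 0.313). With amanitin, SCNT against fertilized 1-cell embryos gave 10 higher and 1 lower member, against 10.1% and 11.4% of all genes, and 2 higher and 7 lower with median centring. Rps19 (1.74 ± 0.36), Rps24 (0.85 ± 0.21), Rps7 (0.81 ± 0.13), Rpl7a (0.78 ± 0.17) and Rps4x (0.63 ± 0.14) were higher in SCNT and Rplp0 was lower (-0.44 ± 0.15). The 10 became 6 without fertilized replicate 1 or SCNT replicate 2 and 5 without fertilized replicate 2. Rplp0 lost its call in 6 of 21 alternatives, Rps24 in 2 and Rpl7a and Rps4x in 1 (adjusted p up to 0.324). Poly(A) control transcripts averaged 3.62 on untreated and 3.75 on treated SCNT 1-cell arrays, against 6.19 to 7.87 on the other 1-cell groups, and their part in these differences was not tested. On the treated SCNT 1-cell arrays the mean over members was 7.91 for replicate 4 and 8.30 to 8.49 for the others.

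At the 2-cell stage parthenogenetic embryos had lower ribosomal protein messages than fertilized ones. Of 43 members 36 were lower and 1 was higher (median -0.96), against 21.0% of all genes called lower and 26.4% called higher. The groups did not overlap for 39, a count with no share of all genes beside it. The mean over members was 9.95 ± 0.06 in parthenogenetic and 10.95 ± 0.18 in fertilized 2-cell embryos (SD, n = 4 each). Rps18 had 9.72, 9.97, 10.05 and 10.11 in parthenogenetic embryos, against 12.59, 12.70, 12.36 and 12.15 in fertilized ones (difference -2.48 ± 0.16, adjusted p = 8.66e-16). Its parthenogenetic arrays all lie more than 2 log2 units below the fertilized ones. Rpl14 (-1.85 ± 0.44), Rpl37a (-1.85 ± 0.20), Rpl41 (-1.79 ± 0.18) and Rps15 (-1.74 ± 0.17), whose human and yeast counterparts act in export of the small subunit from the nucleus, came next. Rpl14 averaged 4.16 ± 0.76 in parthenogenetic and 6.01 ± 0.35 in fertilized 2-cell embryos (SD, n = 4 each), near or below the overall median. The higher member was Rpl13a (0.47 ± 0.10), for which the mean of its probe sets gave -0.23. Probe sets without a mark for related transcripts gave -1.02 for Rps18 (adjusted p = 0.0286) and -0.25 for Rpl41 (adjusted p = 0.651), and the other 2 Rpl41 probe sets gave -0.97 and -0.65. Tested directly, the rise between the stages was smaller in parthenogenetic than in fertilized embryos for 23 members and larger for 0 (also 0 at an unadjusted p of 0.05), against 15.7% and 19.8% of all genes. Rpl27a (-2.51 ± 0.37), Rpl14 (-2.44 ± 0.62), Rpl37a (-2.28 ± 0.29), Rps19 (-2.07 ± 0.50) and Rps18 (-2.04 ± 0.23) had the largest such differences, of which Rps18 gave -0.49 on its unmarked probe set (adjusted p = 0.553).

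Between SCNT and fertilized 2-cell embryos 11 members were higher in SCNT and 2 lower (median 0.21), against 14.3% and 16.3% of all genes. This count depends on the scaling, since median centring gave 2 higher and 4 lower with a median of -0.07 and the values as deposited gave 5 higher and 3 lower, and it became 6 without fertilized replicate 4. Rpl12, at the base of the stalk, was higher by 1.38 ± 0.33 (adjusted p = 0.000929), followed by Rpl37 (0.82 ± 0.19), Rps10 (0.75 ± 0.21), Rpl7 (0.66 ± 0.16) and Rpl22 (0.61 ± 0.11). The probe set of Rps10 without a mark for related transcripts, dim with a mean of 5.49, gave -0.05. Its other marked probe sets gave 0.71, 0.66, 1.01 and 0.96. Rpl7 and Rpl22 each lost their call in 1 of 20 alternatives (adjusted p 0.135 and 0.101). Rpl37 had 9.11, 9.30, 9.76 and 9.42 in SCNT embryos, against 8.99, 9.23, 7.92 and 8.16 in fertilized ones, and 3 of the 4 SCNT arrays lie above all fertilized arrays. The rise between the stages was larger in SCNT embryos for 4 members, Rpl12 (1.76 ± 0.48), Rpl37 (1.53 ± 0.29), Rpl7 (0.68 ± 0.23) and Rpl22 (0.48 ± 0.17), against 8.62% of all genes, and smaller for 4, Rpl39l, Rpl3l, Rpl41 (-0.77 ± 0.27) and Rps28 (-0.66 ± 0.21), against 10.4%. The 4 larger rises became 2 without fertilized 1-cell replicate 3, SCNT 1-cell replicate 4, or replicate 3 of either 2-cell group, and median centring gave 2 larger and 7 smaller. Of these calls Rpl3l lost its own in 17 of 27 alternatives, Rpl22 in 13, Rpl41 in 11, Rpl7 in 10 and Rps28 in 4 of 28, with adjusted p up to 0.961. Markers of cumulus cells, the donor type, summed to 3356.8 to 4355.3 intensity units on SCNT 2-cell arrays and 2606.9 to 4089.5 on fertilized ones over 13 of 14 listed genes, and their part was not tested. Poly(A) control transcripts differed more between the stages in SCNT than in fertilized embryos. Their part in the larger and smaller rises was not tested.

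SCNT against parthenogenetic 2-cell embryos gave 34 higher and 2 lower members (median 1.19), against 24.4% and 30.1% of all genes. This comparison shares the SCNT arrays with the comparison above and the parthenogenetic arrays with the one before it. Rps18 (3.004 ± 0.16), Rpl37a (2.30 ± 0.20), Rpl14 (2.24 ± 0.44), Rpl38 (2.18 ± 0.18) and Rps15 (2.03 ± 0.17) had the largest positive differences, of which Rps18 gave -0.52 on its unmarked probe set. The lower members were Rpl39l (-2.20 ± 0.22) and Rps27l (-0.32 ± 0.14), whose call was lost in 10 of 20 alternatives (adjusted p up to 0.146).

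With amanitin, SCNT and fertilized 2-cell embryos differed in 9 members higher and 9 lower in SCNT, against 18.6% and 24.6% of all genes, and in 2 higher and 10 lower with median centring. Rpl41 had 8.95, 9.50, 9.74 and 9.04 in treated SCNT embryos, against 7.72, 7.81, 8.33 and 7.74 in treated fertilized ones (difference 1.41 ± 0.18). Rps27 (1.01 ± 0.24), Rps19 (0.87 ± 0.36), Rps18 (0.64 ± 0.16) and Rpl35 (0.57 ± 0.16) were also higher in SCNT. Lower were Rpl39l (-1.65 ± 0.22), Rpl4 (-1.42 ± 0.19), Rplp2 (-1.35 ± 0.16), Rpl13a (-1.31 ± 0.10) and Rps24 (-1.29 ± 0.21). The amanitin effect itself was less negative or more positive in SCNT than in fertilized embryos for 7 members, against 17.8% of all genes, and the reverse for 11, against 21.1%. The first were led by Rpl41 (1.86 ± 0.26), Rpl39l (1.67 ± 0.31), Rpl3l (1.39 ± 0.49), Rps27 (0.96 ± 0.34) and Rpl6 (0.71 ± 0.19). The others were led by Rplp2 (-1.76 ± 0.22), Rpl13a (-1.71 ± 0.14), Rpl4 (-1.64 ± 0.26), Rpl12 (-1.62 ± 0.46) and Rps24 (-1.48 ± 0.30). On unmarked probe sets the differences of effects were -0.35 for Rpl41 and 0.91 for Rps24, and the treated SCNT minus fertilized difference was 0.46 for Rps24. For Rps18 that difference was -0.03 as the mean of its probe sets, and for Rpl41 it was 0.12 on the unmarked one (adjusted p = 0.839). The treated SCNT minus fertilized call was lost in 11 of 20 alternatives for Rps19, 3 for Rps18 and 2 for Rpl35, and the difference of effects in 7 of 28 for Rps27 and 4 of 27 for Rpl3l. Poly(A) and hybridization control transcripts averaged 10.36 and 10.88 on the treated SCNT 2-cell arrays, against 7.42 and 10.04 on the treated fertilized ones, and their part was not tested.

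Rpl39l had the largest difference between SCNT and fertilized 2-cell embryos of the 43 members. It encodes a paralog of the tunnel protein Rpl39 that in adult mice is best known from male germ cells. Its levels were 9.10, 7.83, 8.20 and 7.40 in SCNT, 9.95, 10.56, 10.04 and 10.77 in parthenogenetic and 11.57, 11.56, 11.44 and 11.25 in fertilized 2-cell embryos. The 3 groups do not overlap. SCNT embryos were lower than fertilized ones by -3.32 ± 0.22 (adjusted p = 3.54e-15), and parthenogenetic embryos by -1.12 ± 0.22 (adjusted p = 3.58e-05), 2 comparisons that share the fertilized arrays. At the 1-cell stage the levels were 10.16, 10.01 and 9.88 in SCNT, 9.91, 9.93, 9.84 and 9.53 in parthenogenetic and 10.33, 9.72, 9.79 and 9.45 in fertilized embryos, and no pair of origins was called. Between the stages it rose in fertilized embryos (1.63 ± 0.22, adjusted p = 2.11e-08) and fell in SCNT embryos, and the difference between those changes was -3.52 ± 0.32 (adjusted p = 1.8e-10). With amanitin, SCNT 2-cell embryos had 8.36, 8.58, 7.74 and 8.05, against 9.10, 7.83, 8.20 and 7.40 without it (difference 0.05 ± 0.22, adjusted p = 0.845). Fertilized 2-cell embryos had 9.82, 9.91, 9.61 and 10.01 with amanitin, against 11.57, 11.56, 11.44 and 11.25 without (difference -1.62 ± 0.22, adjusted p = 2.38e-08). The treated fertilized arrays sit at the 1-cell level, and the treated and untreated SCNT arrays overlap below it. Rpl39l has 1 probe set here, so no other reading of it exists in these data. Its parent Rpl39 gave -0.02 ± 0.25 between SCNT and fertilized 2-cell embryos, which did not pass the test (adjusted p = 0.964).

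**Figure D5:**
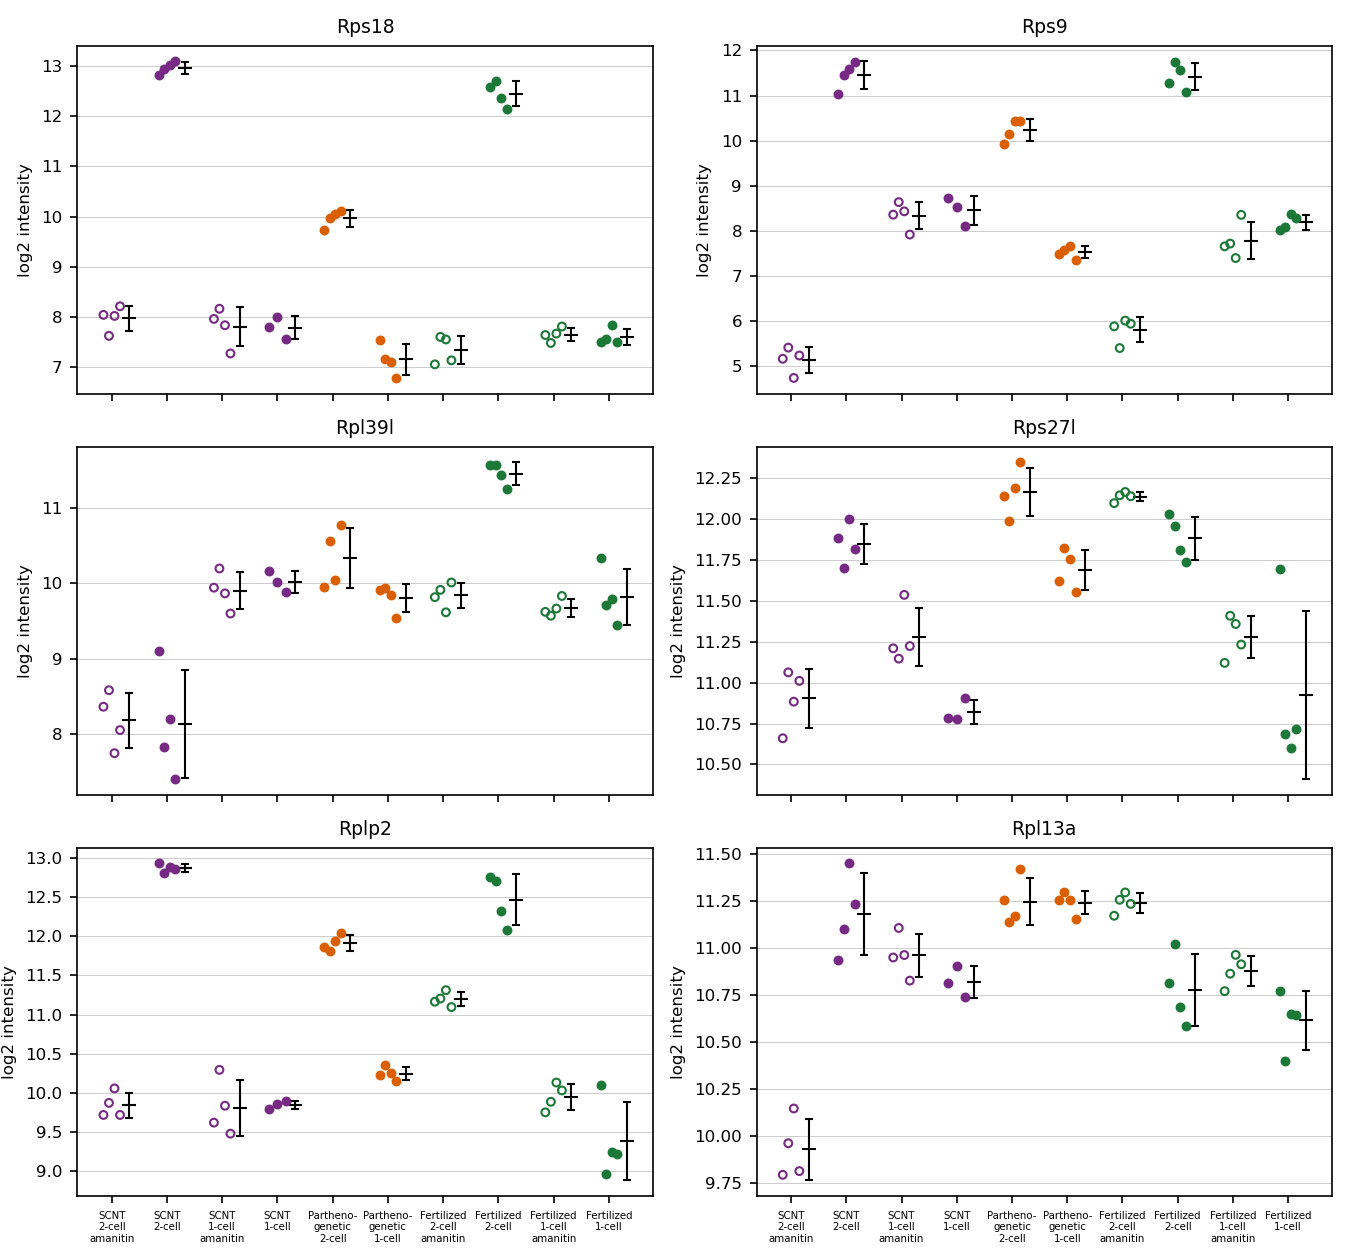
Log2 level of Rps18, Rps9, Rpl39l, Rps27l, Rplp2 and Rpl13a (1 panel each, each with its own scale) on every array by group, with bars at the mean ± SD and open circles for amanitin. Rps18 and Rps9 are highest on untreated 2-cell arrays, Rpl39l is lowest in both SCNT 2-cell groups, and Rps27l and Rpl13a differ by less between groups.

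Rpl3l, the paralog that replaces Rpl3 in adult heart and skeletal muscle, was dim throughout. Its levels were 4.73, 5.51, 5.38 and 6.20 in SCNT, 5.84, 5.21, 5.55 and 5.50 in parthenogenetic and 6.73, 6.28, 6.26 and 6.33 in fertilized 2-cell embryos, against 3.43, 3.29, 3.19 and 3.31 in fertilized 1-cell embryos. Only the 2-cell values reach the overall median, so its rise of 3.10 ± 0.35 rests in part on the constant. Rpl3l lay above that median on 10 of 39 arrays, all of untreated 2-cell embryos, and passed the filter only through them. The filter thus favoured its stage and amanitin calls, which are counted with the members. Rps27l, a paralog of Rps27 that p53 activates, had 10.66, 11.06, 10.88 and 11.01 with amanitin in SCNT 2-cell embryos, against 11.88, 11.70, 11.998 and 11.82 without (difference -0.95 ± 0.14, adjusted p = 8.13e-08). In fertilized embryos it had 12.10, 12.15, 12.17 and 12.14 with amanitin, against 12.03, 11.96, 11.81 and 11.74 without. The treated SCNT arrays lie below all untreated ones, the treated fertilized arrays slightly above them, and the effects differed by -1.20 ± 0.19 (adjusted p = 2.68e-06). Between the stages it rose by 1.03 ± 0.15 in SCNT, 0.48 ± 0.14 in parthenogenetic and 0.96 ± 0.14 in fertilized embryos, all less than the members' medians, and with median centring the parthenogenetic value was -0.07.

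The stalk recruits the translation factors to the ribosome, and Rplp0 anchors the acidic proteins such as Rplp2. Rplp0 had 12.87, 12.88, 12.73 and 13.05 in fertilized 2-cell embryos, against 9.86, 9.55, 9.66 and 9.57 at 1 cell (difference 3.22 ± 0.15), and parthenogenetic 2-cell embryos had 12.55, 12.63, 12.55 and 12.69. Unlike most members it was not called between parthenogenetic and fertilized 2-cell embryos (-0.28 ± 0.15, adjusted p = 0.137), although the arrays do not overlap. Rplp2 had 9.72, 9.87, 10.06 and 9.72 with amanitin in SCNT 2-cell embryos, against 12.93, 12.81, 12.88 and 12.86 without (difference -3.03 ± 0.16). In fertilized embryos it had 11.16, 11.21, 11.31 and 11.10, against 12.76, 12.71, 12.33 and 12.08 (difference -1.27 ± 0.16), and the effects differed by -1.76 ± 0.22 (adjusted p = 2.63e-08). The treated fertilized arrays stayed above all 1-cell arrays, while the treated SCNT arrays lay within the range of the SCNT 1-cell arrays.

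On the X chromosome lie Rps4x and Rpl39. Rps4x, a small subunit protein that has a Y-linked copy in humans, had 11.51, 11.55, 11.59 and 11.65 in parthenogenetic, against 12.22, 12.29, 12.09 and 11.89 in fertilized 2-cell embryos (difference -0.55 ± 0.14, adjusted p = 0.000967). With amanitin it had 7.68, 8.27, 7.65 and 7.82 in fertilized 2-cell embryos (difference -4.27 ± 0.14), below every fertilized 1-cell array. Rpl11, which with Rpl5 and 5S RNA forms the particle that inhibits Mdm2, had 9.80, 9.96, 9.68 and 9.81 in parthenogenetic, against 11.51, 11.70, 11.21 and 10.98 in fertilized 2-cell embryos (difference -1.54 ± 0.15, adjusted p = 4.03e-11). With amanitin it fell by 2.79 in fertilized and by 2.82 in SCNT 2-cell embryos.

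Ribosomal protein genes have many processed pseudogenes and close copies, so the level of a single gene is uncertain. Of the 44 chosen probe sets 31 carry a suffix (a, s or x) by which the maker marks probes that may match several transcripts. The suffix a stands for transcripts of the same gene, so the 31 are not all marked for matches to other genes. The members had 97 probe sets, 22 members had more than 1, and 19 had more than 1 past the filter. For 17 of these 19 all probe sets had the same sign in the fertilized stage difference. Rpl41 gave 5.65, 5.21, 3.08 and 2.86, and Rps27l gave 0.96, 0.89 and 1.02. Rps18 gave 4.85, 4.39, 3.81 and 0.38, and its probe set without a suffix gave -1.20 in SCNT embryos. Unmarked probe sets were often dim, with means of 5.40 for Rps18, 4.94 for Rpl41, 5.53 for Rps24, 5.49 for Rps10 and 4.35 for Rps9. These lie near or below the overall median of 5.34, so a small difference on them does not show that the gene stayed unchanged. Rpl22 gave 3.05, 1.43 and -2.51, and Rps3 gave 4.24, 4.08 and -0.09. With unmarked probe sets preferred, the number of members called was within 1.5 times of that reported for the stage and amanitin comparisons of each origin. That setting changed the probe set only for Rpl22, Rpl35, Rpl41, Rps3, Rps9, Rps10, Rps15, Rps18 and Rps24. Other marked members had no unmarked probe set past the filter and kept the marked one, so these counts cannot exclude binding of related transcripts.

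As a description over the 10 group means, 31 of 43 members (72.1%) correlated above 0.9 with the mean of the other members, as did 1076 of 14797 other genes (7.27%). The members least like the rest were Rps6 (r = -0.26), Rpl39l (0.16), Rpl13a (0.29), Rpl37 (0.50) and Rps27l (0.54). The genes outside the ribosomal proteins with the most similar pattern were Maip1 (r = 0.9965), Dnaaf2 (0.9953), Fkbp4 (0.9945), Npl (0.9942) and Fbl (0.9940), the methyltransferase of box C/D snoRNPs. These correlations rest on 10 points that share stage and treatment.

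Other parts of the translation machinery moved in part with the members. The 4 tested ribosomal protein genes whose symbols fall outside the rule all rose between the stages in fertilized embryos and fell with amanitin, as with Rpsa (4.51 and -4.40). The shares of all genes were 25.8% higher and 34.2% lower between the stages, and 38.6% higher and 25.8% lower with amanitin. Of 31 ribosome assembly factors 24 rose and 3 fell (median 1.72), and with amanitin 29 fell and 1 rose (median -3.27). Nop2, an rRNA methyltransferase, gave 5.39 ± 0.40 and -5.55 ± 0.40, and Rrp9, of the U3 snoRNP, 5.01 ± 0.35 and -6.07 ± 0.35. Of 17 other TOP messages and elongation factors 9 rose and 4 fell (median 0.35), and with amanitin 12 fell and 3 rose (median -1.51). Pabpc1, the poly(A)-binding protein, gave 5.38 ± 0.15 and -5.28 ± 0.15, while Eef1a1, the main elongation factor, gave -0.24 ± 0.06 and 0.26 ± 0.06. Mitochondrial ribosomal proteins were split, with 31 of 76 higher and 32 lower between the stages (median -0.15) and 26 higher and 43 lower with amanitin (median -0.80). Of 17 regulators of ribosomal protein synthesis 8 rose and 3 fell between the stages, and with amanitin 5 rose and 8 fell, Rps6 among the 17 and these 8. Gabpa, an ETS factor, gave 6.71 ± 0.26 and -7.17 ± 0.26, Yy1 5.11 ± 0.16 and -5.52 ± 0.16, and Larp1 4.49 ± 0.28 and -3.83 ± 0.28. The 3 that were lower between the stages, named after their values were seen, were higher with amanitin, as Akt1 gave -0.51 ± 0.10 and 0.94 ± 0.10, Mtor -0.25 ± 0.11 and 0.56 ± 0.11, and Tsc2 -0.70 ± 0.28 and 0.95 ± 0.28. Eif4ebp2 and Tsc1 were the other two higher with amanitin (0.53 and 0.83). Between parthenogenetic and fertilized 2-cell embryos 27 of the 31 assembly factors were lower and 1 higher, and 41 of the 76 mitochondrial ribosomal proteins were lower and 11 higher, against 21.0% and 26.4% of all genes.

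Between replicates, correlations across genes ran from 0.9397 to 0.9797. Of the oocyte markers all 11 lay above the overall median in the fertilized 1-cell group, and spermatid and blood markers summed to at most 399.6 and 63.9 intensity units on any array. The 6 tested genes known to be activated at the 2-cell stage all rose in fertilized embryos and 5 fell with amanitin. The 18S rRNA probe sets averaged 10.81 in SCNT, 11.22 in parthenogenetic and 10.25 in fertilized untreated 2-cell embryos, against 12.72 to 13.25 in all other groups, and moved opposite to the members. Cumulus markers summed to 1314.5 to 1535.8 on parthenogenetic 2-cell arrays and to at most 968.5 on all 1-cell and amanitin arrays, with Amhr2 rising by 5.80 in fertilized embryos. Of the 13 genes, 7 lay above the overall median in fertilized 1-cell and 6 in fertilized 2-cell embryos. These numbers were 8 and 6 in untreated SCNT and 4 and 5 in parthenogenetic embryos, so the sums do not show a rise of the whole list. The part of 18S rRNA and of these markers in the results was not tested.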

How the data were processed

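Poly(A) RNA of mouse embryos was hybridized to Affymetrix arrays of 45101 probe sets. The deposited values are intensity on a linear scale, scaled by the authors so that the 2% trimmed mean is 150.0 on all 39 arrays; their software is not given in the sources used here. The column of untreated 1-cell SCNT replicate 2 is empty. The letter A before a replicate number was read as amanitin, which the labels spell out for 7 of the 8 SCNT and 0 of the 8 fertilized samples concerned, and which the submitters' design text gives for both origins.

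The 64 control probe sets were set aside, 6.9 (percentile 20 of the values) was added to the rest, and their log2 was quantile normalized. The annotation gives 34945 of them 1 gene, 932 several and 9160 no gene. The filter asked for a single gene and for a level over the median, 5.34, on 4 or more arrays, which left 25931, and each of 14916 genes was read from its brightest probe set. A limma 3.58.1 model of the 10 groups was fitted in R 4.3.3 (empirical Bayes with a trend, 29 residual degrees of freedom), and 17 comparisons and 3 differences of effects were tested 2-sided, with Benjamini-Hochberg adjustment over all genes of a comparison at 0.05. The fit was tested on simulated data.

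Genes were named per comparison as the 5 largest called rises and falls, all members not called in the stage or amanitin comparison of fertilized embryos, the stalk, paralog, X-linked and 5S particle members, and up to 4 examples of the other lists. These lists cover assembly factors, TOP messages, regulators, mitochondrial and other ribosomal proteins, disease genes and oocyte, cumulus, spermatid, blood and 2-cell markers. As an exception more than 4 regulators were named, some of them after their values were seen. The members and lists were chosen with earlier results of these data known. Alternatives were values as deposited, median centring, constants of 1.8 and 22.1, other filters, the mean of probe sets, unmarked probe sets, a fit without a trend, weights per array, a fit of the compared groups alone, the replicate number as a block, and leaving out each array. Replicate numbers were not taken as pairs, since 0 of 45 pairs of groups had every residual correlation above 0.1. The number of arrays limits the precision, and what lies below the filter was not detectable.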

Additional observations from a re-analysis of the deposited data

Results flagged for a closer look

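In 6 of 171 groups of 4 arrays, over 19 series of levels, a single array lay farther from the others than Dixon's test allows, and chance alone gives about 1 in 20. In fertilized 2-cell embryos with amanitin, replicate 3 had log2 levels of 5.32 for Rps19 (the others 3.69 to 3.91) and 8.33 for Rpl41 (the others 7.72 to 7.81), and replicate 2 had 8.89 for Rps7 (the others 8.20 to 8.26). Rpl3l was 6.73 in fertilized 2-cell replicate 1, Rps27l 11.69 in fertilized 1-cell replicate 1 and Rpl11 9.10 in amanitin-treated fertilized 1-cell replicate 4.

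The other results set out here are effects that differed between origins by the test of the difference itself (log2, limma). The amanitin effect at 2 cells, SCNT minus fertilized, was higher for 7 and lower for 11 of 43 members, against 17.8% and 21.1% of all genes. These counts do not set the members apart from other genes. The difference was 1.86 for Rpl41, 1.67 for Rpl39l, 1.39 for Rpl3l, 0.96 for Rps27 and 0.71 for Rpl6. It was -1.76 for Rplp2, -1.71 for Rpl13a, -1.64 for Rpl4, -1.62 for Rpl12, -1.48 for Rps24, -1.20 for Rps27l and -0.79 for Rps4x.

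The change between the stages, SCNT minus fertilized, was higher for 4 and lower for 4 of 43 members, against 8.62% and 10.4% of all genes. Here too the counts do not set the members apart. The difference was 1.76 for Rpl12, 1.53 for Rpl37, 0.68 for Rpl7 and 0.48 for Rpl22, and -3.52 for Rpl39l, -1.41 for Rpl3l, -0.77 for Rpl41 and -0.66 for Rps28. Poly(A) control transcripts also differed more between the stages in SCNT than in fertilized embryos, and their part was not tested. The change between the stages, parthenogenetic minus fertilized, was lower for 23 members, against 15.7% of all genes. Among them were Rpl27a (-2.51), Rpl14 (-2.44), Rpl37a (-2.28), Rps19 (-2.07), Rps18 (-2.04), Rpl3l (-1.46), Rplp2 (-1.42), Rpl39l (-1.10), Rpl11 (-0.75), Rplp0 (-0.59) and Rps27l (-0.48).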

How the results depend on the processing

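The counts of members that rose between the stages stayed at 36 to 40 in fertilized, 37 to 40 in SCNT and 33 to 39 in parthenogenetic embryos over all alternatives, and those lower with amanitin at 35 to 41 in fertilized and 34 to 40 in SCNT 2-cell embryos. Of parthenogenetic against fertilized 2-cell embryos 30 to 39 members were lower. Replicate numbers share no source in the labels, and with them as a replicate block the counts were 39, 40 and 38 for the stages, 40 and 39 for amanitin, 10 for SCNT above fertilized and 36 for parthenogenetic below fertilized at 2 cells. Smaller counts moved with the scaling. Median centring gave 21 members lower between the stages under amanitin in fertilized embryos, 0 lower with amanitin in fertilized 1-cell embryos, 2 higher in SCNT than in fertilized 2-cell embryos (median -0.0651), and 2 higher in the same comparison under amanitin at either stage. It gave 6 higher in SCNT than in parthenogenetic 1-cell embryos and 2 with a larger stage change in SCNT than in fertilized embryos. The values as deposited gave 5 for SCNT above fertilized at 2 cells, 2 for the larger stage change and 4 lower with amanitin in fertilized 1-cell embryos. That last count was 5 with array weights, 1 with the constant of 22.1, without a trend or with only the compared arrays, and 0 to 2 with an array left out. Array weights gave 8 for SCNT above fertilized and 20 for SCNT above parthenogenetic at 1 cell, and 1 higher with amanitin in SCNT 1-cell embryos. With an array left out, SCNT above fertilized ran from 6 to 12 at 2 cells, 1 to 7 at 1 cell and 5 to 11 at 1 cell with amanitin. SCNT above parthenogenetic at 1 cell ran from 5 to 11 and the larger stage change in SCNT from 2 to 6, and members higher with amanitin in SCNT 1-cell embryos stayed at 0. Leaving out fertilized 1-cell replicate 1 and treated SCNT 1-cell replicate 4 together was added after seeing the data, and gave 8 for SCNT above fertilized at 1 cell, 3 lower with amanitin in fertilized and 1 higher with amanitin in SCNT 1-cell embryos. Unmarked probe sets gave 5 for treated SCNT above treated fertilized 2-cell embryos and 15 for the smaller parthenogenetic stage change. Of 191 called values of named genes, 126 kept direction and call under all their alternatives. Single genes reversed on unmarked probe sets: Rps18 in the SCNT stage change (-1.20) and in SCNT minus parthenogenetic 2-cell embryos (-0.52), Rps9 in the stage change under amanitin (0.0058 in fertilized, 0.60 in SCNT), Rps24 there in SCNT (0.74), in treated SCNT minus fertilized (0.46) and in the difference of amanitin effects (0.91), Rpl41 in the SCNT stage change under amanitin (-0.38) and the difference of effects (-0.35), and Rps10 in SCNT minus fertilized (-0.0479). Of these changes of sign only that of Rps18 between the SCNT stages passed the test (adjusted p = 0.0131), and the others had adjusted p from 0.11 to 0.991. The mean of probe sets reversed Rpl13a with amanitin (-1.08, adjusted p = 3.12e-12) and in parthenogenetic minus fertilized 2-cell embryos (-0.23, adjusted p = 0.0509). It also reversed Rps18 in treated SCNT minus fertilized (-0.0269, adjusted p = 0.922). Median centring reversed the parthenogenetic stage change of Rpl39l (-0.0525, adjusted p = 0.854) and Rps27l (-0.0741, adjusted p = 0.712). It also reversed the stage change under amanitin of Rplp0 in fertilized (-0.0149, adjusted p = 0.956) and Rplp2 in SCNT embryos (-0.47, adjusted p = 0.016). The cause of these changes was not tested, apart from the other probes read in the probe set alternatives. Levels near or below the overall median, such as those of Rps19, Rpl3l and Rpl14 at 1 cell, limit what these arrays can show.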
